A study of Mus musculus with 3 samples.

Results

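Ifng-high CD8 T cells are the CD8 cells of these tumours that carried many transcripts of Ifng, the gene of the cytokine interferon-gamma. They were chosen by counts of unique molecular identifiers (UMIs, 1 per captured transcript). Barcodes under 500 genes or over 10% mitochondrial UMIs were left out, and the larger of the hashtag counts had to reach 150 UMIs and 3 times the other. Each cell had at least 2 UMIs of Cd8a and Cd8b1 together, none of Cd4 or Foxp3, at least 10 of Ifng, and under 3 in all of the granzyme genes Gzmc, Gzmd, Gzme and Gzmf. The rule took 244 of 19912 barcodes, 68 from B16-Ova tumours and 176 from MC38-Ova tumours. They were described against the remaining 4092 CD8 cells, 1724 from B16-Ova and 2368 from MC38-Ova tumours, which met the same rule up to the Cd4 and Foxp3 counts.

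The cells came from C57BL/6 mice with subcutaneous tumours harvested on day 14 and were sorted as TCRB+ CD3+ CD90.2+ CD11b-. B16 is a melanoma line, MC38 is a colon carcinoma line, and both carried the model antigen ovalbumin. Per the series' design text B16-Ova cells bore hashtag 1 and MC38-Ova cells hashtag 2, although the growth protocol names MC38-OVA alone, and all were loaded in 1 droplet capture that also read tags for PD-1, Tim-3 and L-Pha, a lectin for branched N-glycans. How many mice stand behind each hashtag is not given in the sources used here. Each tumour is thus 1 pool with no replicate, no test between groups was made, and every interval below is a 95% interval of counting error alone.

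As background, a CD8 T cell that has just met its antigen transcribes interferon-gamma in a burst that starts within hours and fades when contact ends. Calcium signalling through NFAT, together with AP-1 and NF-kappaB, drives the same burst for other secreted factors: the chemokines CCL3, CCL4 and XCL1, which call in macrophages, T cells and cross-presenting dendritic cells, and the growth factor IL-2, which few CD8 cells make. LAG-3 is an inhibitory receptor that activated and chronically stimulated T cells carry on the surface. Ifng, Ccl3, Ccl4, Il2, Xcl1 and Lag3 were given as the markers of the class.

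Ifng-high cells made up 68 of 1792 CD8 cells in B16-Ova (3.79%, 2.96 to 4.79) and 176 of 2544 in MC38-Ova (6.92%, 5.96 to 7.97). The share was 3.12 percentage points larger in MC38-Ova (1.77 to 4.44). At least 1 Ifng UMI was found in 51.1% of B16-Ova CD8 cells (48.8 to 53.5) and 50.8% of those of MC38-Ova (48.9 to 52.8), so the shares were close at the first UMI and apart at 10. A further 35 CD8 cells in B16-Ova and 28 in MC38-Ova had 10 or more Ifng UMIs but were left out because of their Gzmc to Gzmf counts. Among CD4 cells, 8 of B16-Ova and 7 of MC38-Ova reached 10 Ifng UMIs.

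Because it was chosen on Ifng counts, this small class held much of the Ifng message of CD8 cells. Of all Ifng UMIs in CD8 cells, 37.8% lay in Ifng-high cells in B16-Ova (1788 of 4734) and 67.4% in MC38-Ova (10476 of 15532). Of those in all hashtag-called cells, the class held 13.1% in B16-Ova (1788 of 13680) and 30.2% in MC38-Ova (10476 of 34643). The B16-Ova cells carried between 10 and 184 Ifng UMIs with a median of 16, and the MC38-Ova cells between 10 and 661 with a median of 23. The single richest cell held 10.3% of the class's Ifng UMIs in B16-Ova and 6.31% in MC38-Ova. The counts run on across the limit without a gap: 27 cells of B16-Ova and 38 of MC38-Ova lay just inside it with 10 to 12 UMIs, and 41 and 77 lay just outside with 7 to 9. Levels are given as UMIs per 1000000 RNA UMIs of the summed cells (CPM). Ccl4 stood at 2589 CPM just inside and 1544 just outside in B16-Ova, and at 3245 inside and 4244 outside in MC38-Ova.

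All 244 cells had a UMI of Cd3d, Cd3e or Cd3g, parts of the CD3 complex of T cells. They held more RNA than other CD8 cells, with medians of 11541 against 7262 UMIs for B16-Ova and 10149 against 6815 for MC38-Ova. A limit on raw Ifng counts favours cells with more RNA, so this difference cannot be read apart from the rule. Cells just outside the limit, with 7 to 9 Ifng UMIs, held no less RNA than those just inside, with 10 to 12. Their B16-Ova median was 13111 RNA UMIs, against 9921 inside. The MC38-Ova medians were 7834 outside, against 7616.5 inside. With every cell thinned to 4000 UMIs and a limit of 4 Ifng UMIs, the class was 4.77% of CD8 cells of B16-Ova (3.76 to 5.95) and 10.6% of those of MC38-Ova (9.32 to 11.98), again the larger. Among marker lists of other cells, all 7 neutrophil and mast cell genes were at 0, but other CD8 cells also had only 0.18 and 0.26 CPM. The 10 macrophage and monocyte genes summed to 35.2 against 66.2 CPM in B16-Ova and 44.2 against 80 CPM in MC38-Ova. Of these genes Csf1r and Adgre1 were at 0 in both tumours, and 1 MC38-Ova cell held 18 of the list's 89 UMIs there. The melanoma list stood at 39.3 against 287 CPM and 30.8 against 38.1 CPM. The dendritic list stood at 236 against 293 CPM in B16-Ova and at 747 against 340 CPM in MC38-Ova, where 1263 of the 1504 UMIs lay in 1 cell. Barcodes with both hashtags numbered 2388 and were not used.

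The rule itself sets Ifng, whose level was 1851 against 181 CPM in B16-Ova and 5203 against 267 CPM in MC38-Ova. For all other genes a difference is given as called where the level differed at least 2-fold the same way in both tumours and both intervals lay on that side of 1. Of 5217 genes with a mean of at least 20 CPM, 33 were called higher in Ifng-high cells (0.633%) and 17 lower (0.326%). The cells were chosen on transcripts of the same libraries, so this contrast describes the class and carries no test. The median gene lay at a log2 ratio of 0.047 in B16-Ova and -0.012 in MC38-Ova. Secreted factors head the genes called higher, and Cd63 and Tcf7 are among those called lower.

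Chemokine genes had the highest median ratio of the lists of T cell genes in both tumours. Of 7 chemokine genes compared, 5 were called higher, with a list median log2 ratio of 2.54 in B16-Ova and 3.30 in MC38-Ova. Ccl4, whose product attracts T cells and myeloid cells, stood at 5007 CPM in Ifng-high cells against 791 in other CD8 cells of B16-Ova, a ratio of 6.33 (6.13 to 6.55). In MC38-Ova it stood at 20914 against 1158 CPM, a ratio of 18.1 (17.8 to 18.4). Per cell, Ccl4 had a B16-Ova median of 22.5 UMIs, with cells from 0 to 704, and an MC38-Ova median of 66.5, with cells from 0 to 1924, against 1 UMI in other CD8 cells of either tumour. The cells of the class were thus far from uniform, and their lower quartile was 2.75 UMIs in B16-Ova and 7.75 in MC38-Ova.

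Ccl3, a related inflammatory chemokine encoded beside Ccl4, stood at 3807 against 436 CPM in B16-Ova (ratio 8.73, 8.39 to 9.09) and at 5364 against 264 CPM in MC38-Ova (20.3, 19.6 to 21.0). Xcl1, which attracts XCR1-bearing dendritic cells, stood at 1316 against 227 CPM in B16-Ova (5.80, 5.43 to 6.18) and at 593 against 151 CPM in MC38-Ova (3.94, 3.68 to 4.22). Unlike Ccl3 and Ccl4, Xcl1 stood higher in the B16-Ova than in the MC38-Ova class. It was found in 29 of 68 and 74 of 176 cells, so most cells of the class had none, and 1 cell held 33.1% of its UMIs in B16-Ova. Ccl1, a ligand of CCR8, stood at 287 against 29.2 CPM in B16-Ova and at 283 against 5.50 CPM in MC38-Ova, but only 14 and 13 cells carried it. Ccl9 was called as well and rested on 7 and 5 cells, with 51.2% and 68.9% of its UMIs in 1 of them. Ccl5, a chemokine that effector and memory CD8 cells express constitutively, stood at 6579 against 6940 CPM and at 3650 against 4264 CPM, just below other CD8 cells in both tumours.

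Il2 is a marker of the class that few of its cells carried. It had UMIs in 3 of 68 Ifng-high cells of B16-Ova and in 42 of 176 of MC38-Ova. The 3 B16-Ova cells held 25, 21 and 2 UMIs. The 5 richest MC38-Ova cells held 231, 199, 123, 118 and 113. The summed level was 49.7 against 2.64 CPM in B16-Ova (ratio 18.8, 12.2 to 29.0) and 748 against 15.2 CPM in MC38-Ova (49.2, 43.3 to 56.0). Without the 1 cell of each group that held most of it, the log2 ratio of Il2 was 3.31 in B16-Ova, where it rested on 2 cells, and 5.98 in MC38-Ova.

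Of 11 cytokine genes compared, Il2, Csf2 and Lta were called higher and none lower. Csf2, which encodes the myeloid growth factor GM-CSF, stood at 42.4 against 3.94 CPM in B16-Ova from 3 cells and at 92.4 against 6.82 CPM in MC38-Ova from 22 cells. Lta, which encodes lymphotoxin-alpha, stood at 44.5 against 10.8 CPM (ratio 4.14, 2.89 to 5.80) and at 106 against 16.2 CPM (6.54, 5.47 to 7.82). Tnf, which encodes the inflammatory cytokine TNF, stood at 55.9 against 33.0 CPM in B16-Ova (1.70, 1.26 to 2.25) and at 444 against 57.6 CPM in MC38-Ova (7.72, 7.06 to 8.45). It was not called, since the B16-Ova ratio stayed under 2-fold. Among 6 TNF-family ligands compared, Tnfsf11 (RANKL) and Tnfsf14 (LIGHT) were called higher; Tnfsf14 reached 12.4 against 6.03 CPM in B16-Ova from 8 cells and 95.8 against 13.7 CPM in MC38-Ova.

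**Figure D1:**
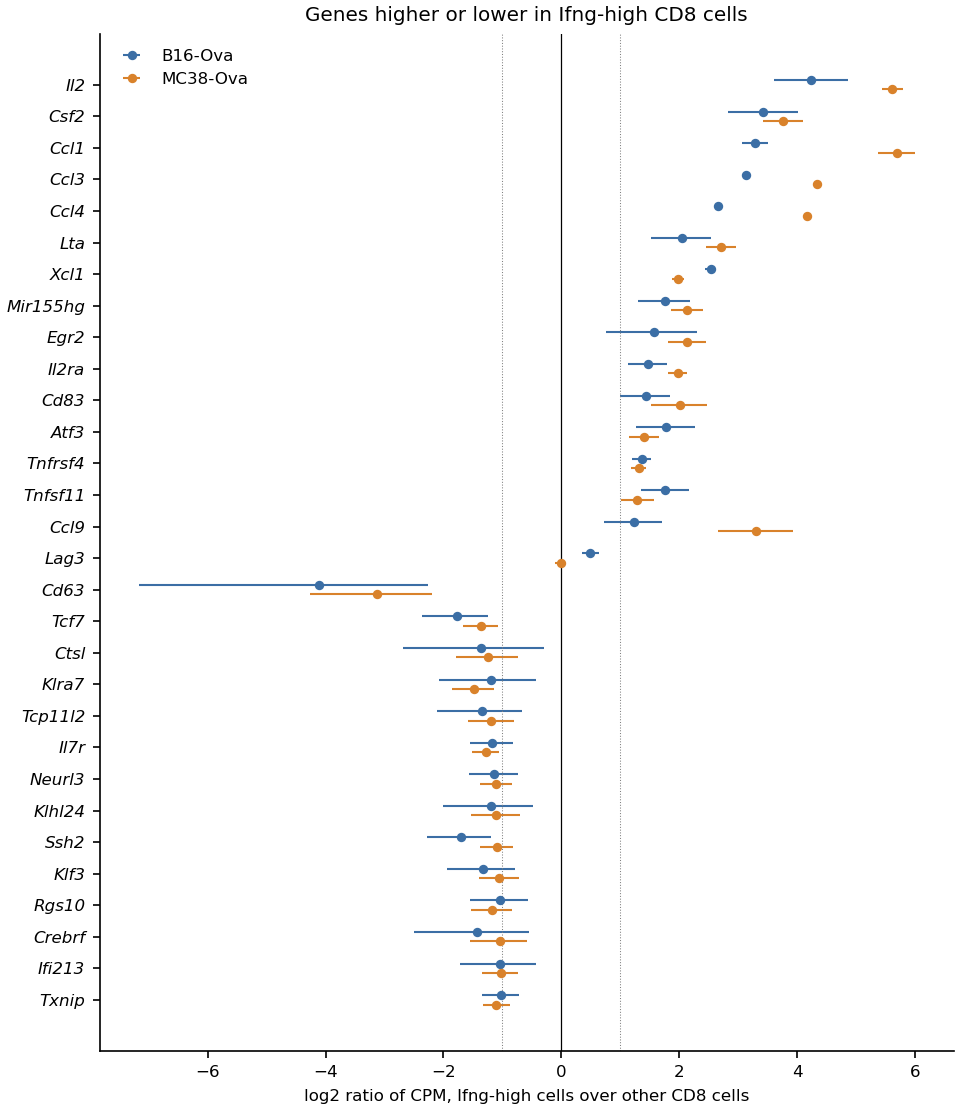
Log2 ratio of summed CPM in Ifng-high over other CD8 cells (x axis) for called genes of large ratio in each direction and Lag3 (y axis), in B16-Ova (blue) and MC38-Ova (orange); bars are 95% intervals of counting error and dotted lines mark 2-fold. Il2 and Ccl1 lie far to the right in both tumours but rest on few cells, Ccl3 and Ccl4 have intervals narrower than their points, and Lag3 stays inside the 2-fold lines.

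To let the proximal promoters of Ifng and of factors higher in its class be compared, the 250 bases before the start site of 4 genes are shown, from the RefSeq promoter table on GRCm38.p6, 5′ to 3′ on the gene's strand. Ifng lies on the plus strand of chromosome 10, Ccl3 on the minus strand of chromosome 11, Il2 on the minus strand of chromosome 3 and Xcl1 on the minus strand of chromosome 1. Capitals mark GGAAA, the core of NFAT sites, on either strand, where TTTCC is its reverse complement.
Ifng, chr10:118440796-118441045: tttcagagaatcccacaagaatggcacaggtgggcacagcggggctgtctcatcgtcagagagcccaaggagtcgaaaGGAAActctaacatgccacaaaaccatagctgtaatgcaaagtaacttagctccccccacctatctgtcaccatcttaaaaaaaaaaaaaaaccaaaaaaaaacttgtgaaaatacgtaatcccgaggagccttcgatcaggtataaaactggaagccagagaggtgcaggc
Ccl3, chr11:83649379-83649628: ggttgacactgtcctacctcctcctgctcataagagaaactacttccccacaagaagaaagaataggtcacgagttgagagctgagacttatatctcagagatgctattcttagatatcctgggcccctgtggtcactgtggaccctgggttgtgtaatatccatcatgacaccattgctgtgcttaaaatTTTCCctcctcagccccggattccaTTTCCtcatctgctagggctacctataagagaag
Il2, chr3:37125955-37126204: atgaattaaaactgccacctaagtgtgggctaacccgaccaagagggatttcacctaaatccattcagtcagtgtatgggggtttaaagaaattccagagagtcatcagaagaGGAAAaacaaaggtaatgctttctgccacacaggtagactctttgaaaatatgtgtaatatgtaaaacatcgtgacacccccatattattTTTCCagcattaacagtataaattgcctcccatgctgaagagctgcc
Xcl1, chr1:164935523-164935772: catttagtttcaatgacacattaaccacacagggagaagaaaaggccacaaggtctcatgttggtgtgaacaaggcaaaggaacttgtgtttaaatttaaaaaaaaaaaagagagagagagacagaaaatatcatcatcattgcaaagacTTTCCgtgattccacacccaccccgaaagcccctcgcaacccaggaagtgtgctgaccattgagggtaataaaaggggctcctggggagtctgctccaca
The core was found 1 time for Ifng and for Xcl1, 2 times for Ccl3, Il2, Csf2 and Lta, and 3 times for Ccl1 and Tnf. It occurs in 55.6% of all 32851 promoters of this length, and 6.39% hold it 3 or more times. The AP-1 motif TGANTCA, the NF-kappaB motif (GGGNN followed by TTTCC, which includes the reverse of the NFAT core) and the Egr motif GCGNGGGCG, searched on both strands, had no match in these 8 windows and occur in 6.75%, 1.41% and 4.70% of all. A match of letters is not a bound site.

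A deeper cell has more chances to show a rare transcript, so shares of cells with a UMI were compared with every cell thinned to 4000 RNA UMIs. This left out 4 of 68 and 7 of 176 Ifng-high cells, and 237 and 413 other CD8 cells. Cells with at least 2 Foxp3 UMIs and no Cd8a or Cd8b1 give a level for free RNA, together with what they express themselves. Il2 was found in 3.12% of thinned Ifng-high cells of B16-Ova (0.381 to 10.8) against 1.01% of other CD8 cells, and in 20.1% in MC38-Ova (14.4 to 26.96) against 1.59%. In Foxp3 cells it was found in 0.526% and 0.598%. Without thinning the shares in Ifng-high cells were 4.41% and 23.9%. In B16-Ova the interval of Il2 thus reached down to the level of the other cells, and in MC38-Ova it did not.

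Tnf was found in 28.1% of thinned Ifng-high cells of B16-Ova (17.6 to 40.8) and 50.3% of MC38-Ova (42.5 to 58.1). The Foxp3 cells had it in 15.8% and 15.7%, above the 10.8% of other CD8 cells in B16-Ova and close to their 16.2% in MC38-Ova. Tnf in other CD8 cells was thus not clearly above the level of Foxp3 cells. In Ifng-high cells of MC38-Ova it was above that level. In those of B16-Ova the lower bound of 17.6% lay just above the 15.8% of Foxp3 cells. Xcl1 was found in 35.9% and 33.7% of thinned Ifng-high cells, 18.4% and 20.9% of other CD8 cells, and 4.74% and 6.57% of Foxp3 cells. Ccl1 was found in 15.6% (7.76 to 26.9) and 5.92% (2.87 to 10.6), against 1.61% and 1.02% of other CD8 cells. The Ccl1 intervals of the tumours overlap, and both lay above the other CD8 cells.

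**Figure D2:**
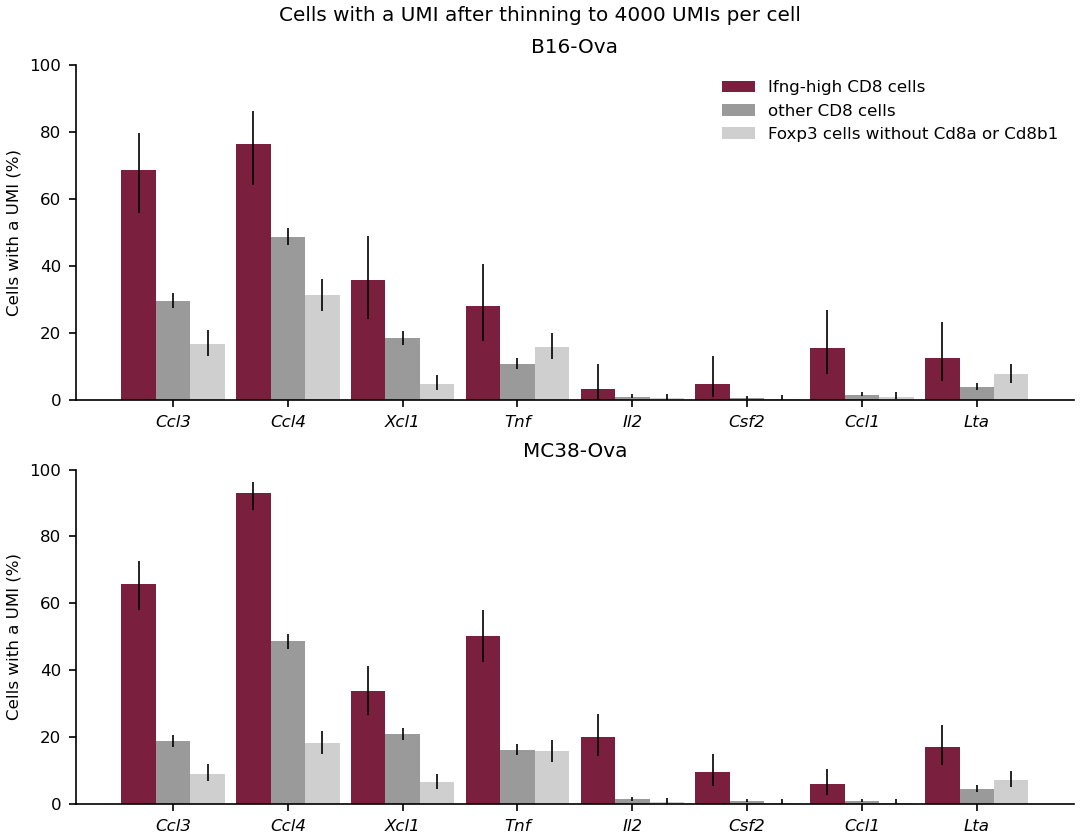
Percentage of cells (y axis) with at least 1 UMI of 8 secreted factors (x axis) after thinning to 4000 UMIs, in B16-Ova (top) and MC38-Ova (bottom); bars are Ifng-high CD8 cells, other CD8 cells and Foxp3 cells, with exact 95% binomial intervals. Ccl4 is found in 76.6% and 92.9% of Ifng-high cells, Il2 in 3.12% and 20.1%.

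Combinations of factors were counted too. Without thinning, Tnf and Il2 were found together in 2 of 68 Ifng-high cells of B16-Ova and in 37 of 176 of MC38-Ova (21.0%, 15.2 to 27.8). Neither was found in 54.4% of the B16-Ova cells (41.9 to 66.6) and 27.3% of the MC38-Ova cells (20.8 to 34.5). Of the 42 MC38-Ova cells with Il2, 37 also had Tnf and 29 also had Xcl1.

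Activation receptors were higher in part. Of 25 costimulatory and activation receptors compared, Il2ra, Tnfrsf4 and Crtam were called higher and Il7r lower. Il2ra, the alpha chain of the IL-2 receptor, stood at 91.1 against 32.9 CPM in B16-Ova (ratio 2.77, 2.18 to 3.47) and at 229 against 58.2 CPM in MC38-Ova (3.93, 3.52 to 4.39). Tnfrsf4 (OX40) stood at 388 against 150 CPM and at 318 against 128 CPM. Tnfrsf9 (4-1BB), which marks recent antigen contact, stood at 787 against 415 CPM in B16-Ova (1.90, 1.76 to 2.05) and at 1302 against 518 CPM in MC38-Ova (2.51, 2.41 to 2.63), and so missed the 2-fold limit in B16-Ova. The other CD8 cells there include 35 Ifng-carrying cells left out for Gzmc to Gzmf, at 902 CPM. CD8 cells under 3 Gzmc to Gzmf UMIs had 230, 357 and 568 CPM with 0, 1 to 2 and 3 to 9 Ifng UMIs. Cd69, an early activation marker, stood at 356 against 372 CPM in B16-Ova and 823 against 559 CPM in MC38-Ova.

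Transcription factors induced through the T cell receptor lay mostly above 1 without passing 2-fold in both tumours. Of 32 compared, 24 were above 1 in both tumours and 4 below in both, but only Egr2 was called. Of all 5217 genes compared, 2881 were above 1 in B16-Ova and 2533 in MC38-Ova. How many of all genes lay on the same side of 1 in both tumours is not given, here or for later lists. Egr2, a zinc-finger factor downstream of calcium and ERK signals, stood at 18.6 against 6.27 CPM from 11 cells of B16-Ova and at 60.1 against 13.6 CPM from 48 cells of MC38-Ova. Nr4a1, a standard reporter of receptor signalling, stood at 528 against 276 CPM (1.91, 1.74 to 2.09) and at 1076 against 337 CPM (3.20, 3.04 to 3.36). Irf8 stood at 329 against 169 CPM (1.94, 1.73 to 2.18) and at 368 against 113 CPM (3.25, 2.99 to 3.54). The Ifng-carrying B16-Ova cells left out for Gzmc to Gzmf, which count as other CD8 cells, had 487 CPM of Irf8. B16-Ova cells under 3 Gzmc to Gzmf UMIs had 84.2, 119 and 186 CPM with 0, 1 to 2 and 3 to 9 Ifng UMIs. Myc, a driver of growth, stood at 63.1 against 54.0 CPM in B16-Ova (1.17, 0.887 to 1.52) and at 148 against 40.7 CPM in MC38-Ova (3.64, 3.18 to 4.17). Dissociation-stress genes lay above 1 about as often, with 13 of 18 above in both tumours and 3 below in both. The lists share Fos, Fosb, Jun, Junb, Jund and Egr1, so their counts are not separate. Fos and Jun, which cell dissociation also induces, were not above 1 in both. Fos stood at 278 against 298 CPM and at 583 against 527 CPM, and Jun at 155 against 158 CPM and at 99.8 against 145 CPM.

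Among 35 feedback brakes compared, Nfkbid and Gadd45b were called higher. Nfkbid, a nuclear IkappaB protein that modulates NF-kappaB, stood at 188 against 86.0 CPM in B16-Ova (2.19, 1.87 to 2.56) and at 555 against 109 CPM in MC38-Ova (5.10, 4.74 to 5.49). Gadd45b stood at 455 against 220 CPM and at 1079 against 311 CPM. Mir155hg, the host transcript of miR-155, stood at 56.9 against 16.9 CPM (3.38, 2.48 to 4.53) and at 83.9 against 19.1 CPM (4.39, 3.63 to 5.28). Cd83, a surface protein of activated lymphocytes, was called from 17 and 23 cells, with log2 ratios of 1.43 and 2.01. The stress-induced factor Atf3 was called too, as the only one of 18 dissociation-stress genes compared. Srm, a polyamine synthesis enzyme, was the called member among 19 amino acid transport and growth genes, and Hk2, a hexokinase, the called member among 18 glycolysis and hypoxia genes. Against other CD8 cells matched for RNA content neither was called.

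Genes of naive and memory T cells were lower. Of 18 compared, 17 were below 1 in both tumours. Of all 5217 genes, 2881 were above 1 in B16-Ova and 2533 in MC38-Ova, each tumour taken alone. Tcf7, Il7r and Klf3 were among those of the list called lower, with a list median log2 ratio of -0.81 in B16-Ova and -0.57 in MC38-Ova. Tcf7, which encodes TCF-1, the factor of naive, memory and stem-like cells, stood at 29.0 against 99.1 CPM (0.292, 0.194 to 0.424) and at 49.2 against 127 CPM (0.388, 0.315 to 0.475). Il7r, the receptor for the survival cytokine IL-7, stood at 68.3 against 154 CPM and at 82.9 against 202 CPM. Klf3, a quiescence-associated factor, stood at 28.0 against 70.5 CPM and at 37.7 against 78.2 CPM. Tcf7 was also called lower against RNA-matched CD8 cells, with log2 ratios of -1.30 and -1.15, whereas Il7r and Klf3 were not.

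The other genes called lower are of mixed kinds. Cd63, a tetraspanin of lysosomes and granule membranes, had the lowest ratio, with log2 values of -4.12 and -3.13, from 1 cell of B16-Ova and 9 of MC38-Ova. In MC38-Ova the share of cells with Cd63 was alike, 5.11% against 5.36%, and 1 other CD8 cell held 202 of the 738 Cd63 UMIs there. Cd63 was called in 4 of 8 settings, and not against other CD8 cells with under 3 Gzmc to Gzmf UMIs, with thinned cells, with the mean of per-cell CPM or with at least 20 Ifng UMIs. Klra7, an inhibitory receptor of the Ly49 family, had log2 ratios of -1.19 and -1.48. Txnip, which encodes an inhibitor of glucose uptake, stood at -1.03 and -1.10. Ctsl, Tcp11l2, Neurl3, Klhl24, Ssh2, Rgs10, Crebrf and Ifi213 had log2 ratios between -1.71 and -1.03. Txnip, Tcp11l2, Neurl3, Klhl24, Rgs10, Crebrf and Ifi213 were called neither with thinned cells nor against RNA-matched cells. Ssh2 was not called against RNA-matched cells, and Ctsl not with thinned cells. Of the 17 genes called lower, 3 were called under all 8 settings tried, Tcf7 and Klra7 among them. Of the 33 called higher, 14 were: Atf3, Ccl1, Ccl3, Ccl4, Csf2, Egr2, Il2, Il2ra, Lta, Mir155hg, Rgcc, Tnfrsf4, Tnfsf11 and Xcl1.

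Levels were also followed along the Ifng count. CD8 cells with under 3 Gzmc to Gzmf UMIs were split into 0, 1 to 2, and 3 to 9 Ifng UMIs, below the Ifng-high cells. Tcf7 in B16-Ova stood at 171, 89.2, 43.3 and 29.0 CPM from the first class to the last, and in MC38-Ova at 176, 104, 91.9 and 49.2 CPM. Gzmb went the other way at each step, reaching 1976 CPM from 666 in B16-Ova, and 5593 CPM from 1279 in MC38-Ova. Xcl1 stood at 246, 250 and 273 CPM in the lower classes of B16-Ova and at 1316 in the Ifng-high cells. In MC38-Ova it rose at each step, from 129 to 152, 178 and 593 CPM, with the widest step at the last. Il2 stayed between 1.7 and 3.6 CPM in the lower classes of B16-Ova and rose over those of MC38-Ova from 2.84 (1.82 to 4.23) to 9.71 CPM (6.72 to 13.6), far below its 748 CPM in the Ifng-high cells.

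**Figure D3:**
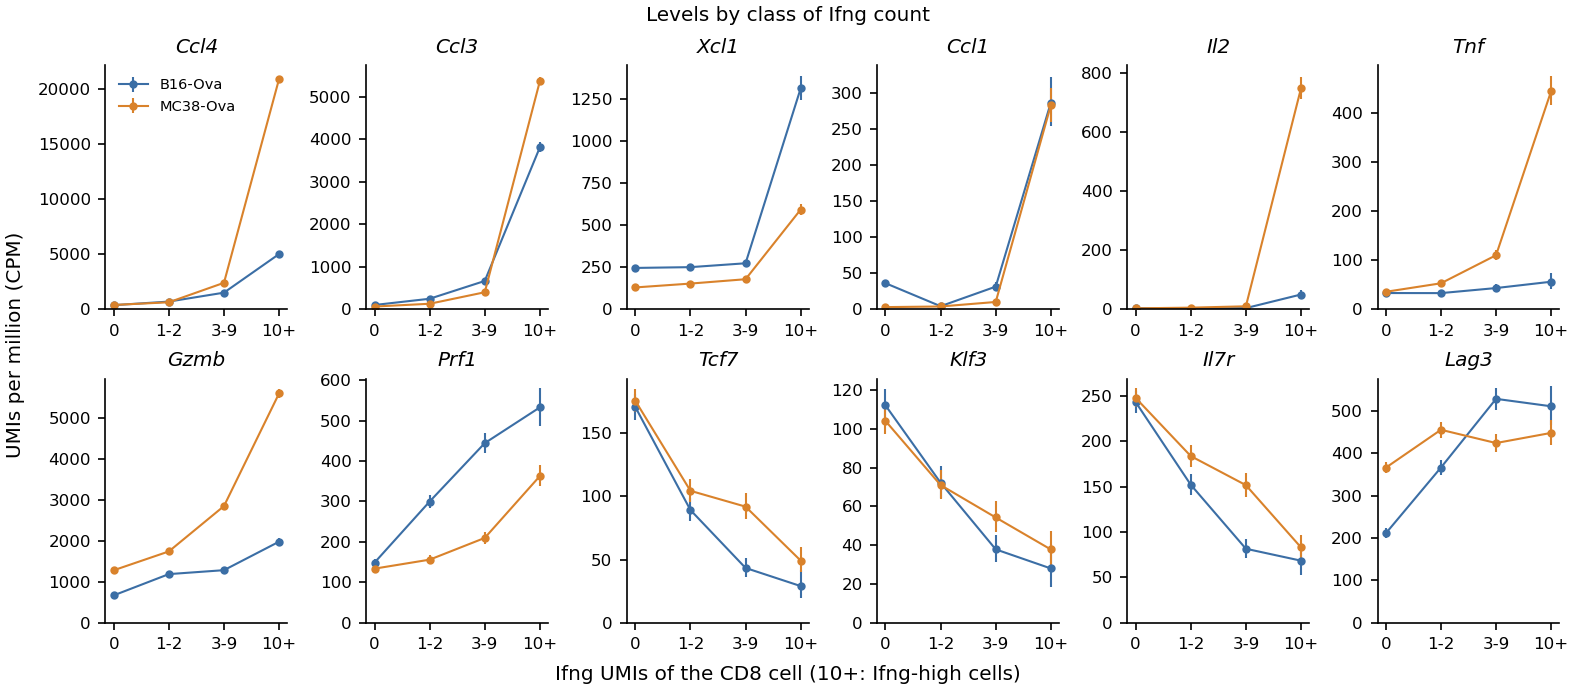
Summed CPM (y axes, each from 0) of 12 genes in CD8 cells with 0, 1 to 2, 3 to 9 and at least 10 Ifng UMIs (x axis), in B16-Ova (blue) and MC38-Ova (orange), with 95% intervals of counting error. Tcf7, Klf3 and Il7r decline from the first step on, whereas Xcl1 and Il2 take their widest step at the last class, and Lag3 in MC38-Ova is level from 1 to 2 UMIs on.

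Lag3, the last of the given markers, stood at 511 against 363 CPM in B16-Ova (ratio 1.41, 1.28 to 1.55) and at 448 against 452 CPM in MC38-Ova (0.991, 0.925 to 1.06). After thinning to 4000 UMIs, Lag3 was found in 68.8% of Ifng-high cells of B16-Ova (55.9 to 79.8) against 44.9% of other CD8 cells, and in 63.9% in MC38-Ova (56.2 to 71.1) against 47.4% (45.1 to 49.6). Foxp3 cells, which express Lag3 themselves, had it in 54.7% and 41.4%. Of 12 inhibitory receptors and ectonucleotidases compared none was called in either direction, and none of 9 exhaustion-associated factors. Havcr2, which encodes Tim-3, stood at 157 against 110 CPM (1.43, 1.21 to 1.69) and at 229 against 107 CPM (2.13, 1.92 to 2.36). Pdcd1, which encodes PD-1, stood at 492 against 382 CPM and at 329 against 329 CPM. Of the given markers other than Ifng, then, Ccl3, Ccl4 and Xcl1 were higher in the class of both tumours, Il2 was found in a minority of its cells, and Lag3 differed in MC38-Ova in the share of cells but not in its summed level.

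Killing genes did not set the class apart as a list from other CD8 cells, which include all cells with 3 or more Gzmc to Gzmf UMIs. Of 20 cytotoxic granule genes compared only Stx11, a syntaxin needed for granule release, was called higher, and the list's median log2 ratio was 0.37 for B16-Ova and -0.18 for MC38-Ova. Gzmb stood at 1976 against 1308 CPM (1.51, 1.44 to 1.58) and at 5593 against 2084 CPM (2.68, 2.63 to 2.74), and Prf1, which encodes perforin, at 533 against 428 CPM and at 363 against 196 CPM. In B16-Ova the 35 Ifng-carrying cells left out for Gzmc to Gzmf stood at 4173 CPM for Gzmb and 1687 for Prf1. CD8 cells under 3 Gzmc to Gzmf UMIs with 3 to 9 Ifng UMIs had 1281 and 444.5 CPM in B16-Ova. Those of MC38-Ova had 2844 and 210 CPM. Cells with fewer Ifng UMIs had less of both genes. The list was not summarised against these cells alone. Gzmk, a granzyme of less differentiated cells, stood at 155 against 208 CPM and at 74.5 against 157 CPM. Fcer1g, a signalling adaptor of innate-like cells, stood at 78.7 against 155 CPM and at 76.0 against 179 CPM. The list of 12 natural killer and innate-like genes summed to 228 against 325 CPM in B16-Ova and 222 against 496 CPM in MC38-Ova, and its member Klra7 was called lower.

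Genes that respond to interferons were not higher in the cells that carried the interferon-gamma message. Of 17 interferon-gamma response genes compared none was called, with median log2 ratios of -0.15 and -0.37. Of 12 type I interferon genes Rtp4 was called lower, with medians of -0.30 for B16-Ova and -1.28 for MC38-Ova. Ifit3, an antiviral effector, stood at 30.0 against 36.5 CPM in B16-Ova (0.822, 0.546 to 1.19) and at 25.8 against 109 CPM in MC38-Ova (0.237, 0.176 to 0.312). None of 25 cell cycle, 20 secretory-pathway, 9 cholesterol synthesis and 11 N-glycan genes compared was called. Of all genes 0.633% were called higher and 0.326% lower, so lists of this size could be without a call. Above 1 in both tumours were 16 cell cycle and 17 secretory-pathway genes, with 1 of each list below in both. For cholesterol synthesis 3 were above and 0 below in both, and for N-glycan genes 2 and 8.

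Within the MC38-Ova class, the 42 cells with Il2 differed from the 134 without in other factors, a split chosen after the values were seen. Their median RNA was similar, 10304 and 9939 UMIs. Ccl4 had a per-cell median of 46754 CPM (21005 to 63551) in the cells with Il2 and 2547 CPM (1245 to 5751) in those without, and Ifng 4281 (2911 to 8348) and 2298 (1929 to 2608). Cd40lg, a helper ligand that licenses dendritic cells, was found in 61.9% of the cells with Il2 (45.6 to 76.4) and 25.4% of those without (18.3 to 33.6). The summed level of Gzmb was lower in the cells with Il2, 2908 against 6528 CPM, but the per-cell medians of 2110 (1410 to 2995) and 2553 (1990 to 3699) had overlapping intervals. Prf1 summed to 92.3 against 457 CPM, and its medians of 59.2 (0 to 97.6) and 122 CPM (66.5 to 163) had overlapping intervals too. In B16-Ova only 3 cells had Il2, too few for such a split.

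The Ifng-high cells of the tumours were then compared with each other, and the same ratio was taken in other CD8 cells. Of 5153 genes compared, 153 were higher at least 2-fold in MC38-Ova (2.97%) and 194 lower (3.76%), from 1 pool each. Ifng itself stood 2.81 times higher in MC38-Ova Ifng-high cells (2.67 to 2.96) and 1.47 times in other CD8 cells. Tnf was 7.95 times higher (6.04 to 10.7) against 1.75 times (1.57 to 1.94) in other CD8 cells. Il2 was 15.1 times higher (11.3 to 20.5) against 5.75 times (4.17 to 8.13), and Ccl4 4.18 times (4.05 to 4.30) against 1.46 times. For Tnf and Il2 the counting-error interval in Ifng-high cells lay above that in other CD8 cells of these pools. Such intervals do not cover the spread between cells or mice, so whether the tumour difference is wider within the class was not tested. Of the 288 Il2 UMIs in other CD8 cells of MC38-Ova, the richest cells held 98 and 54. The tumour ratios are not matched on Ifng count. In cells with 10 to 19 Ifng UMIs, Tnf stood at 218 CPM in MC38-Ova against 42.5 in B16-Ova, and Ccl4 at 7066 against 3065. Without the richest B16-Ova cell, which held 52.1% of the Il2 UMIs there, the Il2 difference rests on 2 cells of that pool, with a log2 ratio of 4.73 once the richest cell of each tumour is left out.

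Other genes followed the same direction. Of 31 receptor-induced transcription factors compared 6 were higher in MC38-Ova and none lower: Egr1, Egr2, Fos, Irf4, Myc and Nr4a1. Myc stood at 148 against 63.1 CPM, 2.35 times higher (1.78 to 3.15), and 0.755 times (0.684 to 0.832) in other CD8 cells. At 10 to 19 Ifng UMIs the Myc levels were close, 57.8 CPM in MC38-Ova and 51.0 in B16-Ova. At 20 or more they were 210 and 74.6 CPM. Cd40lg was 4.80 times higher (3.09 to 7.81) and Tnfsf14 7.72 times (4.32 to 15.2). Bnip3 and Ero1l, which hypoxia induces, were 6.32 times (4.13 to 10.1) and 3.81 times (2.72 to 5.49) higher. In other CD8 cells Cd40lg, Tnfsf14, Bnip3 and Ero1l were also higher in MC38-Ova, 1.78, 2.27, 1.93 and 1.35 times. Against other CD8 cells of its own tumour Bnip3 stood on opposite sides, at 23.8 against 50.8 CPM in B16-Ova and at 150 against 97.9 CPM in MC38-Ova.

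The nominal ratios in favour of MC38-Ova for the class II antigen presentation genes H2-Aa, H2-Ab1, H2-Eb1 and Cd74 rest on 1 cell. That cell held 1503 of the 1614 UMIs of these genes in the MC38-Ova class, with 30120 RNA UMIs, 19 of Cd8a and Cd8b1, 9 of Cd3e and 18 of Ifng. Without the top cell of each tumour the log2 ratio of Cd74 between the tumours was -0.52, and without the highest Scrublet doublet scores it was 3.29. Cd24a had 79.3% of its UMIs in 1 cell too. Ifitm1 was 8.77 times higher in MC38-Ova, and 19.5 times in other CD8 cells, so its difference was larger outside the class.

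In the other direction stood Nrgn, Tox and cell cycle genes. Nrgn, which encodes the calmodulin-binding protein neurogranin, was found in 40 of 68 Ifng-high cells of B16-Ova and 9 of 176 of MC38-Ova, at 276 against 11.4 CPM, a ratio of 0.0413 (0.0258 to 0.0633) against 0.277 (0.252 to 0.304) in other CD8 cells. Tox, a factor of chronically stimulated T cells, was found in 43 and 36 cells, at 158 against 25.8 CPM, a ratio of 0.163 (0.117 to 0.225) against 0.364 (0.337 to 0.393). After thinning Tox was found in 39.1% (27.1 to 52.1) and 6.51% (3.29 to 11.4). Of 26 S-phase and mitosis genes 15 were lower in MC38-Ova and none higher, with a list median of -1.19 against -0.67 in other CD8 cells. Cdk1 was among them at 0.216 (0.143 to 0.323). Of 9 cholesterol synthesis genes 5 were lower. Spp1, the gene of osteopontin, had 211 UMIs in 8 B16-Ova cells, 69.2% of them in 1 cell, and Igfbp7, Cd81, Gldc, Hspa1a, Hist1h1d, Hist1h2ak and Rad51ap1 were the remaining genes of lowest ratio.

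**Figure D4:**
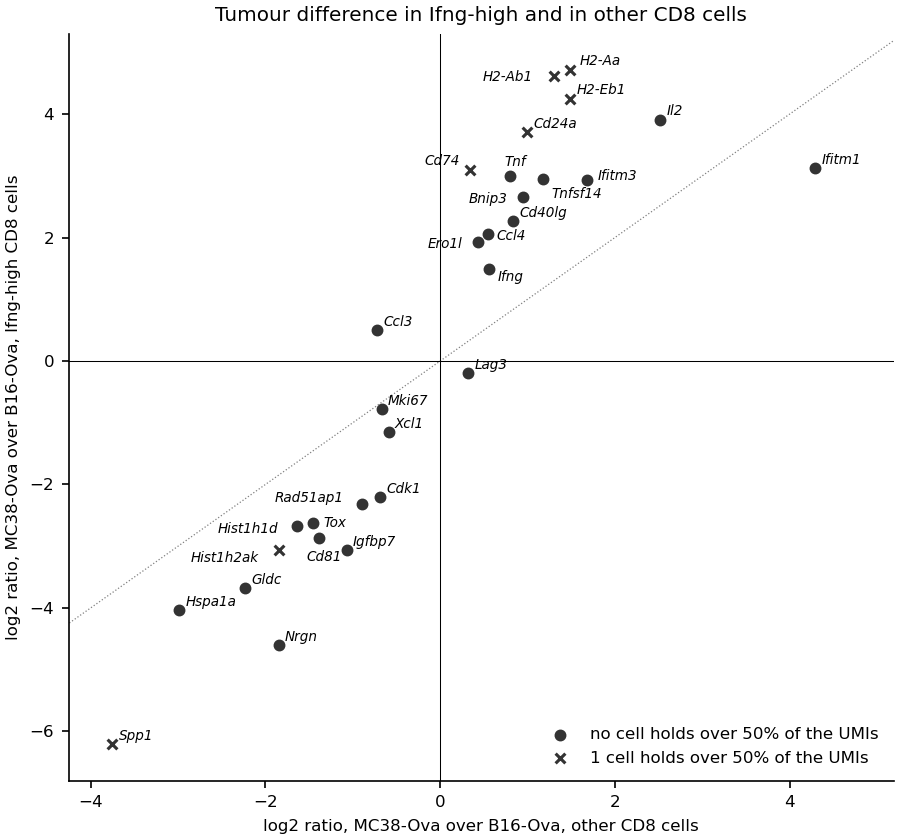
Log2 ratio of MC38-Ova over B16-Ova in Ifng-high cells (y axis) against the same ratio in other CD8 cells (x axis) for the genes of largest tumour difference and the given markers; the dotted line is equality and crosses mark genes with over 50% of their UMIs in 1 cell of the higher pool. Il2, Tnf and Ccl4 lie above the line, Tox and Nrgn below it, and Ifitm1 below it on the right.

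Surface tags were read beside the transcripts. Their oligonucleotides, from the labels, are shown because the tag counts are the only protein and glycan measures of the class; the capitals are the whole barcode.
PD-1 antibody: GAAAGTCAAAGCACT
Tim-3 antibody: ATTGGCACTCAGATG
Biotin antibody, which detects biotinylated L-Pha: CGGTATATCAACAGA
L-Pha binds beta-1,6-branched N-glycans, which the enzyme MGAT5 makes and which activated T cells display at higher density. In B16-Ova the median L-Pha count was 730 UMIs in Ifng-high cells (492 to 884; cells from 136 to 2789) and 465.5 in other CD8 cells (426 to 492). In MC38-Ova it was 339 (312 to 374; cells from 130 to 5793) and 356 (347 to 370). The ratio of medians was 1.57 for B16-Ova (1.00 to 2.08) and 0.952 for MC38-Ova (0.843 to 1.08).

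Median L-Pha counts were higher in CD8 cells of higher RNA content, and the cells of the class hold more RNA. Against other CD8 cells matched on RNA the ratios were 1.09 in B16-Ova (0.666 to 1.44) and 0.723 in MC38-Ova (0.620 to 0.850). CD8 cells of each tumour were also split into 3 equal classes by RNA. In the MC38-Ova class with most RNA, the median was 402.5 UMIs in 106 Ifng-high cells (355 to 484) and 582 in 742 others (546 to 630). In the middle class it was 284 (249 to 327) against 350.5 (335 to 368), and in the lowest 262 (196 to 363) against 252 (239 to 264). In B16-Ova the highest class had 910 (732 to 1062) against 874 (835 to 932). Ifng-high cells of MC38-Ova thus had fewer L-Pha tags than other CD8 cells of like RNA in the middle and highest classes. In B16-Ova no such difference was seen. No unstained cells were analysed here, and barcodes under the hashtag minimum had a median of 134 L-Pha UMIs.

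PD-1 tags had medians of 28 UMIs in Ifng-high and 19 in other CD8 cells of B16-Ova, and 21 and 19 in MC38-Ova. Tim-3 tags had medians of 25.5 and 21, and 23 and 21. Against RNA-matched cells the PD-1 ratio was 1.17 (0.920 to 1.36) in B16-Ova and 1.00 (0.864 to 1.15) in MC38-Ova, and the Tim-3 ratio was 1.13 (0.917 to 1.32) and 1.00 (0.913 to 1.14). Barcodes under the hashtag minimum had medians of 11 PD-1 and 14 Tim-3 UMIs. Mgat5 message was sparse, at 11.4 against 14.3 CPM in B16-Ova (0.798, 0.393 to 1.45) and at 12.9 against 20.1 CPM in MC38-Ova (0.643, 0.415 to 0.957).

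**Figure D5:**
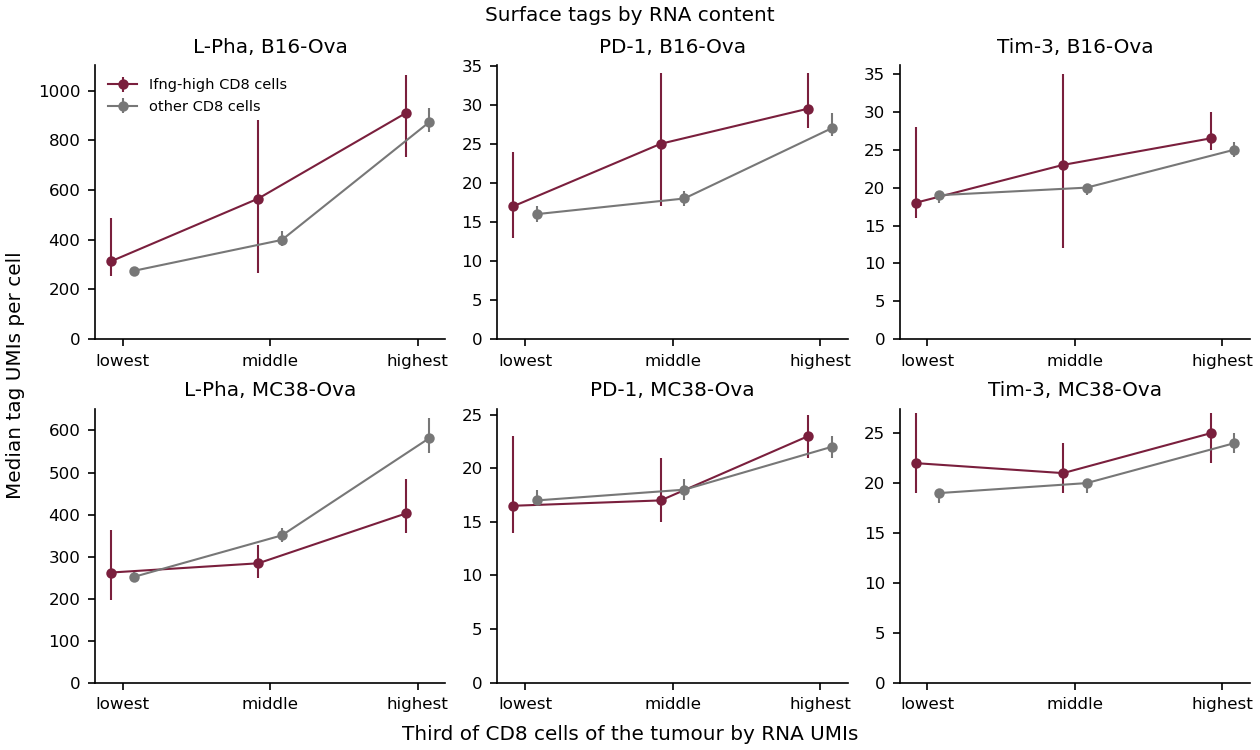
Median tag UMIs per cell (y axes, each from 0) in 3 equal classes of each tumour's CD8 cells by RNA UMIs (x axis), for L-Pha, PD-1 and Tim-3 in B16-Ova (top) and MC38-Ova (bottom), with exact 95% intervals of the median. In MC38-Ova the Ifng-high cells lie below other CD8 cells for L-Pha in the middle and highest classes, at 284 against 350.5 and 402.5 against 582.

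Receptor segments were not used by the rule. A cell's beta chain V gene was read where its leading Trbv gene had at least 2 UMIs and at least 2 times the next. In 59 such Ifng-high cells of B16-Ova and 145 of MC38-Ova, 17 different Trbv genes led in each tumour. Trbv12-1 led in 10 of 59 (16.9%, 8.44 to 29.0) against 10.8% of other CD8 cells (9.23 to 12.5), and in 34 of 145 (23.4%, 16.8 to 31.2) against 14.1% (12.6 to 15.7). In Foxp3 cells it led in 1.66% and 1.48%. Trbv31 led in 20 of 145 MC38-Ova cells (13.8%, 8.63 to 20.5) against 6.96% of others (5.87 to 8.20). Trbv13-2 led in 3 of 59 B16-Ova cells (5.08%, 1.06 to 14.1) against 14.2% (12.5 to 16.1), with overlapping intervals. In MC38-Ova it led in 12 of 145 (8.28%, 4.35 to 14.0) against 8.47% (7.27 to 9.81). The MC38-Ova intervals for Trbv12-1 and Trbv31 lay above those of other CD8 cells, and the class held many V genes in both tumours. These intervals count each cell as independent, but cells of 1 clone share a V gene and clones were not read here. The 2 genes were also picked from the 17 seen, so a preference of the class for them was not tested. Trbv14 led in 19 of 145 MC38-Ova cells, and the remaining genes above 5% were Trbv12-2, Trbv13-1, Trbv13-3, Trbv17, Trbv19 and Trbv20, led by 4 to 10 cells each in a tumour. Reads of similar V genes such as Trbv12-1 and Trbv12-2 may be split between them by the counting.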

How the data were processed

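One droplet capture of tumour T cells was sequenced as RNA, tag and T cell receptor libraries; the receptor library was not analysed here. The authors deposited 1 matrix of unnormalized UMI counts for genes, hashtags and antibody tags. Cell Ranger 3.1.0, R 3.6.1, Seurat 3.1.0 and the build mm10 are named in the submitters' processing notes, while the matrix gives its writer as version 3.0.2, per the file headers. The members and gene lists were chosen with earlier results of these data known.

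From the counts, UMIs were summed per group and tumour and divided by the group's RNA total (CPM); ratios have exact conditional 95% intervals, shares Clopper-Pearson intervals, the difference of shares a Newcombe interval and medians order-statistic intervals. Ranges beside ratios of tag medians divide the bounds of both medians and are conservative. PCR and capture add error that no interval here covers. Called genes needed a mean of 20 CPM and 2-fold in both tumours, rule genes excluded. Genes named are the given markers, the 15 largest rises and falls (leaving out receptor segments and unnamed models), up to 4 called genes per list, and the 10 highest and lowest between tumours; list members below the limits are named as values, chosen after they were seen. Of 31053 genes, 31011 matched GENCODE vM21. Barcodes with both hashtags were dropped; doublets within a pool were left in, and removing the highest Scrublet scores (scanpy 1.11.5) was an alternative that took 5 of 68 and 23 of 176 Ifng-high cells. RNA-matched cells are other CD8 cells drawn by RNA decile. Code was tested on simulated data (numpy 2.4.6, scipy 1.17.1, pandas 2.3.3). The capture's 14992 hashtag-called cells were 6585 B16-Ova and 8407 MC38-Ova. A few genes and lists that the naming rule covers are not reported here.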

Additional observations from a re-analysis of the deposited data

Results flagged for a closer look

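The following pairs had ratios on opposite sides of 1 against other CD8 cells in the 2 tumours. The differences between tumours were not tested. The ratio of median L-Pha counts was 1.57 in B16-Ova (1.00 to 2.08) and 0.952 in MC38-Ova (0.843 to 1.08), where the range spans 1. Against RNA-matched cells the L-Pha ratios were 1.09 and 0.723. Bnip3 had log2 ratios of -1.09 and 0.62. The class II genes Cd74 and H2-Ab1 had log2 ratios of -0.95 and 1.80, and of -1.40 and 1.91, and the single MC38-Ova cell described above held 93.1% of the class's UMIs of H2-Aa, H2-Ab1, H2-Eb1 and Cd74 there.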

How the results depend on the processing

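No paired analysis was possible because each tumour is 1 pool and the labels give no replicate numbers. The share of Ifng-high cells among CD8 cells was larger in MC38-Ova under each of the 7 alternatives: it was 9.43% and 13.8% with at least 5 Ifng UMIs, 1.45% and 3.81% with at least 20, and 8.29% in MC38-Ova with at least 5 Cd8a and Cd8b1 UMIs. In thinned cells with at least 4 Ifng UMIs it was 10.6% in MC38-Ova, with a difference of 5.82 percentage points.

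Genes called lower numbered 10 against RNA-matched cells, 32 with the mean of per-cell CPM, 62 with a minimum of 5 CPM, 81 with no minimum, 98 at 1.5-fold, 54 with at least 20 Ifng UMIs and 31 without the highest Scrublet scores. Genes called higher numbered 162 at 1.5-fold and 83 with at least 20 Ifng UMIs. Leaving out the richest cell per gene, chosen after seeing the data, gave 19 higher, all among the 33, and 43 lower. That setting lowers the smaller class by construction. Between the tumours a minimum of 5 CPM gave 321 higher and 452 lower, and at least 20 Ifng UMIs gave 305 lower. Cd74 between tumours turned to -0.69 with at least 20 Ifng UMIs and to -0.52 without the richest cell. Cd63 had no UMI left in B16-Ova under those settings and gives no ratio.

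Per 1000 RNA UMIs the tag ratios for B16-Ova were 0.945 for L-Pha, 0.904 for PD-1 and 0.706 for Tim-3, and for MC38-Ova 0.678, 0.748 and 0.795. Against RNA-matched cells L-Pha was 0.723 in MC38-Ova. Per 100 hashtag UMIs PD-1 was 0.912 and Tim-3 0.941 there. The cause of these shifts was not tested. Genes carried by few cells, such as Il2 and Csf2 in B16-Ova with 3 cells each, are limited by the number of cells.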
